A study of Mus musculus with 9 samples.

Results

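The Hox cluster genes are the homeobox genes that lie in 4 chromosomal clusters in the mouse. They were taken as every symbol of the deposited count table made of Hoxa, Hoxb, Hoxc or Hoxd followed by digits only, a rule that uses no measured value and that found 39 of the 55418 symbols. HoxA (chromosome 6) has 11 members, HoxB (chromosome 11) has 10, HoxC (chromosome 15) has 9 and HoxD (chromosome 2) has 9. RNA-seq was done on 66cl4, a mouse line described by the labels as triple negative breast cancer cells, in 3 groups of 3 libraries each. One group carried a scrambled short hairpin (SCR), and the other groups each carried a different hairpin against Eya3, named shEya3_KD1 and shEya3_KD2. All 3 groups had been transduced and were kept in 2.5 ug/ml puromycin, so no group is untreated parental 66cl4, and the labels do not say whether a group was a pool or a clone. Replicates are called biological without a description of separate cultures, so p-values measure the spread between these libraries, which may be partly technical. Eya3 encodes a protein that is both a phosphatase and a transcriptional coactivator of Sine oculis-type homeodomain factors.

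Hox proteins are transcription factors that bind DNA through the homeodomain, usually with partners of the Pbx and Meis families, and give cells their position along the body axis in the embryo. Each cluster runs from low paralog numbers, used towards the head, to high numbers, used towards the tail, and genes of the same number in different clusters descend from 1 ancestral gene. Their on or off state is held in many adult cells by Polycomb and Trithorax proteins, and several Hox genes act in mammary gland development or are deregulated in breast cancer.

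Eya3 itself, the check of the labels, fell in both hairpin groups. Its mean level was 72.9 ± 5.56 CPM (counts per 1000000 counts, on the scaled library size; SD, n = 3) in SCR, 23.1 ± 1.71 with shEya3_KD1 and 37.5 ± 3.02 with shEya3_KD2, and the libraries of the groups did not overlap. The log2 fold changes were -1.66 ± 0.08 and -0.96 ± 0.08 (edgeR adjusted p = 3.48e-10 and 3.27e-07). Library totals ran from 27758862 to 52691960 counts. Where a group had no count of a gene, the limit that a count of 0 allows is 3 counts over its libraries, or 0.0213 CPM in SCR, 0.0256 CPM in shEya3_KD1 and 0.0244 CPM in shEya3_KD2. Such limits and the intervals given cover counting error only. Of 7 epithelial markers Krt8 was high (679 CPM in SCR), Epcam had no count, and Cdh1 and Krt18 were at 0.0678 and 0.0277 CPM in SCR, while the mesenchymal marker Vim was at 2099 CPM. The summed epithelial markers were at 658 to 697, 1225 to 1374 and 766 to 870 CPM (SCR, shEya3_KD1 and shEya3_KD2 in turn), nearly all Krt8 in each group, and Krt14 was at 1.32, 0.561 and 11.8 CPM. Krt18 was at 0.0277, 0.955 and 2.62 CPM, Krt7 at 0.442, 1.68 and 0.528 CPM, and Krt5 at 0.0211, 0.506 and 0.0332 CPM. The 4 mesenchymal markers summed to 2328 to 2364, 3262 to 3586 and 2662 to 2880 CPM. Of 3 hormone receptor and Her2 markers, Pgr had no count. In the same order of groups Esr1 was at 7.12, 14.8 and 16.0 CPM and Erbb2 at 53.6, 65.4 and 67.1 CPM. The summed level of 7 leukocyte markers was 0.673 to 1.13 CPM in SCR, 0.432 to 0.655 CPM in shEya3_KD1 and 0.111 to 0.215 CPM in shEya3_KD2, with C1qa without a count. That of 5 endothelial markers was 3.52 to 4.11, 2.15 to 3.04 and 1.85 to 2.43 CPM, most of it Cdh5 in SCR and shEya3_KD2 (3.72 and 2.13 CPM) but Emcn in shEya3_KD1 (2.24 CPM). That of 5 fibroblast markers was 28.2 to 35.2, 38.5 to 40.8 and 28.5 to 40.7 CPM, nearly all of it Pdgfra, with Thy1 without a count. These sums moved between the groups, and their part in the Hox results was not tested.

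A Hox gene was called on in a group when it had at least 1 CPM in each of the 3 libraries, off when it was under 0.1 CPM in each, and low otherwise. By this rule 17 genes were on in all 3 groups, 15 were off in all 3, and 7 lay between. None of the 39 went from on to off or from off to on between any pair of groups, where 0.242% of all 55418 symbols did so. With so small a share of all symbols, none among 39 is no result about the Hox genes. By these thresholds the same Hox genes were active in SCR and with either hairpin. With on set at 0.5 CPM, Hoxa4 and Hoxa9 were on in all 3 groups as well. With on set at 2 CPM, Hoxc5 was on in SCR only and Hoxa6 with shEya3_KD1 only. Hoxb13 was then on in SCR and with shEya3_KD1 but not with shEya3_KD2.

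The active genes were uneven over the clusters. HoxB held 8 of them among its 10 members (Hoxb3, Hoxb4, Hoxb5, Hoxb6, Hoxb7, Hoxb8, Hoxb9 and Hoxb13), and HoxA 6 of 11 (Hoxa3, Hoxa5, Hoxa6, Hoxa7 and Hoxa10 among them). HoxC had only Hoxc5 and Hoxc6 on among 9 members, and HoxD only Hoxd8 among 9. By paralog number, 3 of the 8 genes numbered 1 to 3 were on, 11 of the 15 numbered 4 to 8, and 3 of the 16 numbered 9 to 13. The 3 last were Hoxb9, Hoxa10 and Hoxb13, which lies apart from the main run of its cluster.

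**Figure D1:**
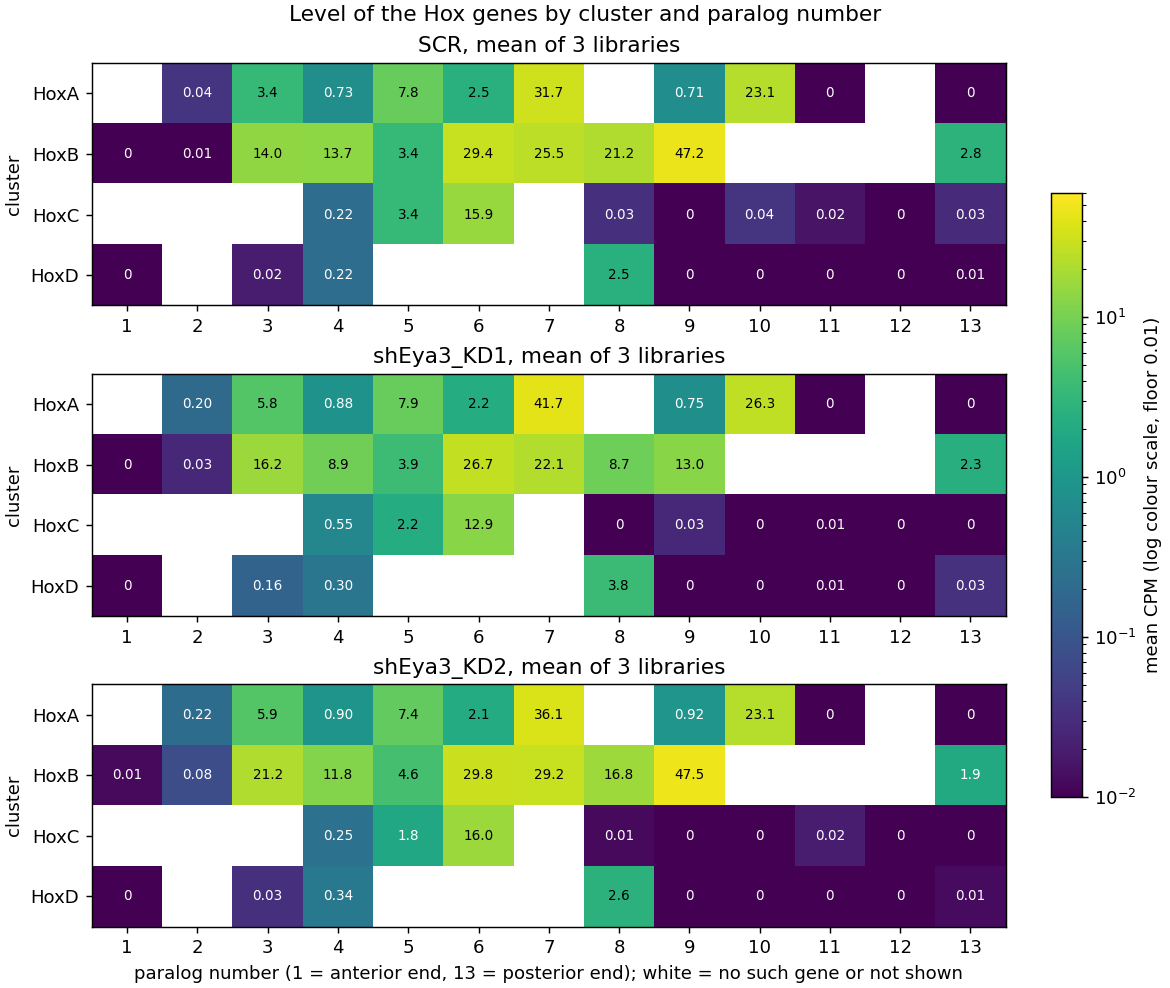
Mean CPM of the Hox genes (colour on a log scale, value in the cell) by cluster (rows) and paralog number (columns), 1 panel per group of 3 libraries, with white cells where the mouse has no such gene or none is shown. The bright cells are the same genes in SCR, shEya3_KD1 and shEya3_KD2, and HoxC and HoxD are dark from paralog 9 on.

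Of the 15 genes off in every group, 7 had no count in any of the 9 libraries: Hoxa11, Hoxa13, Hoxc12, Hoxd1, Hoxd9, Hoxd10 and Hoxd12. The other 8 were Hoxb1, Hoxc8, Hoxc9, Hoxc10, Hoxc11, Hoxc13, Hoxd11 and Hoxd13. Their highest total over the 9 libraries was 7 counts, for Hoxd13, and their highest level in a single library was 0.0990 CPM, for Hoxc8 in SCR replicate 1. Hoxc10 had its 5 counts and Hoxc13 its 4 counts in SCR libraries only. Their SCR means of 0.0372 and 0.0292 CPM lay somewhat above the limits of 0.0256 CPM in shEya3_KD1 and 0.0244 CPM in shEya3_KD2. In the edgeR fit without a filter neither gene passed against SCR with either hairpin (adjusted p 0.146 to 0.233). A lower level in the hairpin groups was thus not established for either gene.

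Levels of different genes were compared per kilobase of merged exons. These pool the exons of all GENCODE M21 transcripts of a gene, and the annotation used for counting is not given. The order thus depends on this choice of length. Hoxa3 had 6.01 kb and Hoxa6 0.874 kb of merged exons, at SCR means of 3.43 and 2.49 CPM. In SCR the order began with Hoxb9 at 18.3 ± 0.683 CPM per kb (SD, n = 3), Hoxb7 at 16.5 ± 0.450, Hoxb6 at 14.96 ± 0.363, Hoxa7 at 11.0 ± 0.249 and Hoxb8 at 8.03 ± 0.760. Hoxa10 (7.06), Hoxc6 (6.61), Hoxb4 (5.35), Hoxa5 (4.17), Hoxb3 (3.28) and Hoxa6 (2.85) followed. Hoxb13 (1.26), Hoxb5 (1.23), Hoxc5 (1.09), Hoxd8 (0.907) and Hoxa3 (0.571 CPM per kb) closed it. Libraries of neighbours in this order overlapped for Hoxa10 with Hoxc6, Hoxb3 with Hoxa6, Hoxb13 with Hoxb5, Hoxb5 with Hoxc5, and Hoxc5 with Hoxd8, and for no other neighbours named here. With shEya3_KD1 the order was led by Hoxa7 (14.5), Hoxb7 (14.3) and Hoxb6 (13.6 CPM per kb), each overlapping the next, and Hoxb9 stood in place 6 with 5.04 ± 0.321 and Hoxb8 in place 10 with 3.30 ± 0.278. With shEya3_KD2 Hoxb7 (18.9) and Hoxb9 (18.5 CPM per kb) led and overlapped.

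**Figure D2:**
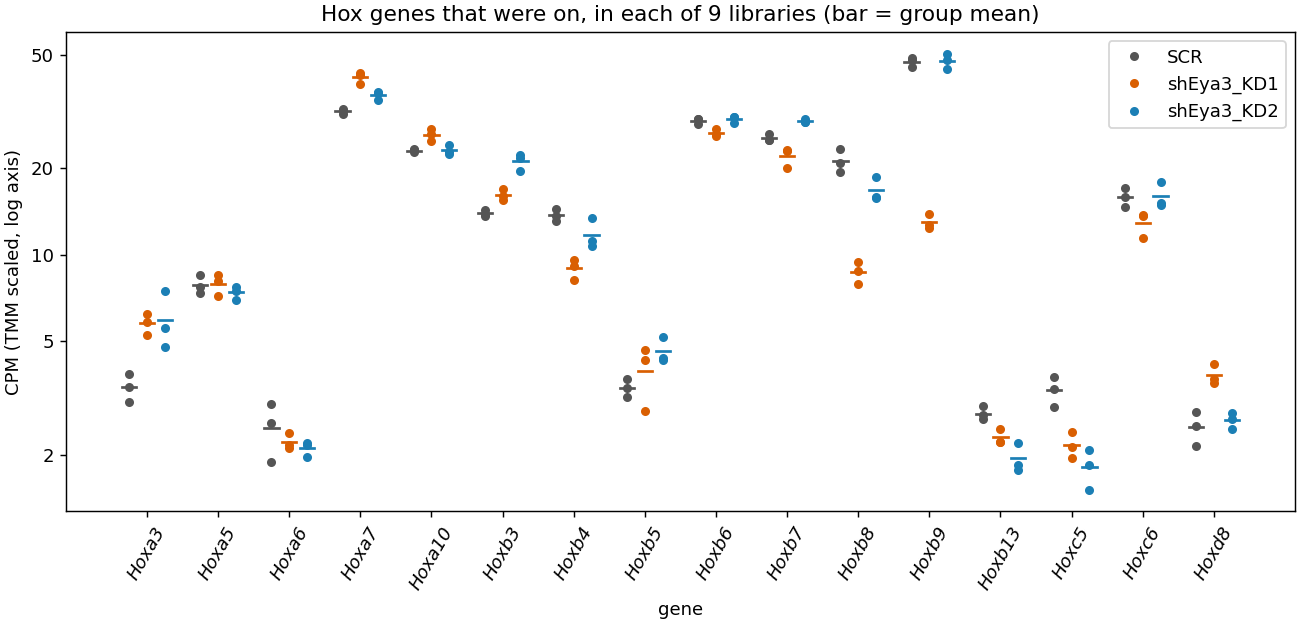
CPM on a log axis of 16 of the 17 Hox genes that were on, 1 point per library and a bar at the mean of 3, by group. The shEya3_KD1 points of Hoxb9 and Hoxb8 lie far below those of SCR and shEya3_KD2, while the groups overlap for genes such as Hoxa5.

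The homeobox is the part of a Hox gene most alike between members, so reads from it could be given to the wrong gene. Those of Hoxb9 and Hoxb8, the tested genes with the largest falls, are shown 5′ to 3′ on the coding strand beside that of Hoxd8, a paralog of Hoxb8 that did not fall with it. They were read from GENCODE M21 transcripts (GRCm38), each lies in exon 2, and the capitals mark the codons of the invariant residues WFQNRR of the recognition helix. Hoxb9 lies at chr11:96274659-96274838 (+), Hoxb8 at chr11:96284174-96284353 (+) and Hoxd8 at chr2:74706525-74706704 (+).
Hoxb9: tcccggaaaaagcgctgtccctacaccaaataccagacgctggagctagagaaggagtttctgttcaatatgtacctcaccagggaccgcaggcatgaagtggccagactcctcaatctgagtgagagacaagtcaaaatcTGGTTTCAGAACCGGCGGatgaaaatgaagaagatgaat
Hoxb8: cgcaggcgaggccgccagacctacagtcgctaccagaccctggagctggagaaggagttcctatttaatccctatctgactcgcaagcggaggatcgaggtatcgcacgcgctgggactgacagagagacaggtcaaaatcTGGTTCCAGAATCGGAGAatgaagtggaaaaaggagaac
Hoxd8: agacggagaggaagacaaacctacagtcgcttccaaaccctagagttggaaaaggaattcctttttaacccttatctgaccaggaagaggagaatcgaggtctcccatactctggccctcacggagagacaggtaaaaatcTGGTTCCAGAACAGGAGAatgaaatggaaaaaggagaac

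Over their 180 bases Hoxb8 and Hoxd8 were 80.6% identical with no identical run longer than 17 bases. The median over the 42 pairs of equal paralog number was 80.6%, against 60.6% over the 699 other pairs, and the highest was 93.9%, for Hoxa3 with Hoxb3. Words of 50 bases were shared by the exons of only 4 pairs of the 39 genes. Hoxa6 and Hoxb4 shared 3 such words and Hoxb9 and Hoxc9 shared 1, while Hoxc5 with Hoxc10 and Hoxd3 with Hoxd4 have exons that overlap in the annotation. The homeoboxes of Hoxb9 and Hoxc9 had no identical run longer than 24 bases, so their word does not lie within the homeobox. Hoxc9 had 3 counts in all 9 libraries. The sources used here do not give read length or how multiply mapped reads were handled.

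In the test of shEya3_KD1 against SCR, 12 of the 21 Hox genes with enough counts to test passed an adjusted p of 0.05 (edgeR's quasi-likelihood test, Benjamini-Hochberg over all 15914 genes tested), beside 50.3% of all genes tested. Of the 12, 6 were higher (24.1% of all genes) and 6 lower (26.2%). The median log2 fold change of the 21 was 0.01, as over all genes. With shEya3_KD2, 9 of 21 passed (45.3% of all genes), 6 higher (23% of all genes) and 3 lower (22.3%), and the median was 0.08 against 0.00 over all genes. Between the hairpins 11 of 21 differed (49.6% of all genes), with 7 higher in shEya3_KD2 (27%) and 4 lower (22.5%). These shares lie near those of all genes tested, so the number of calls is no result about the Hox genes. The other 18 Hox genes had too few counts to be tested.

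Changes over 2-fold were limited to 3 of the 21 with shEya3_KD1, beside 14.7% of all genes, and these were Hoxb9, Hoxb8 and the low gene Hoxc4. None of the 21 passed 2-fold with shEya3_KD2, beside 9.3% of all genes, although 9 passed the adjusted p of 0.05. Of the 21, the libraries of the groups did not overlap in 14 for shEya3_KD1 against SCR (59.3% of all genes), 11 for shEya3_KD2 against SCR (54.4%) and 12 between the hairpins (54.3%). The hairpin comparisons share the SCR libraries, so the values of each are given side by side. An exact permutation test of 1 gene over 3 and 3 libraries cannot give a p under 0.1.

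**Figure D3:**
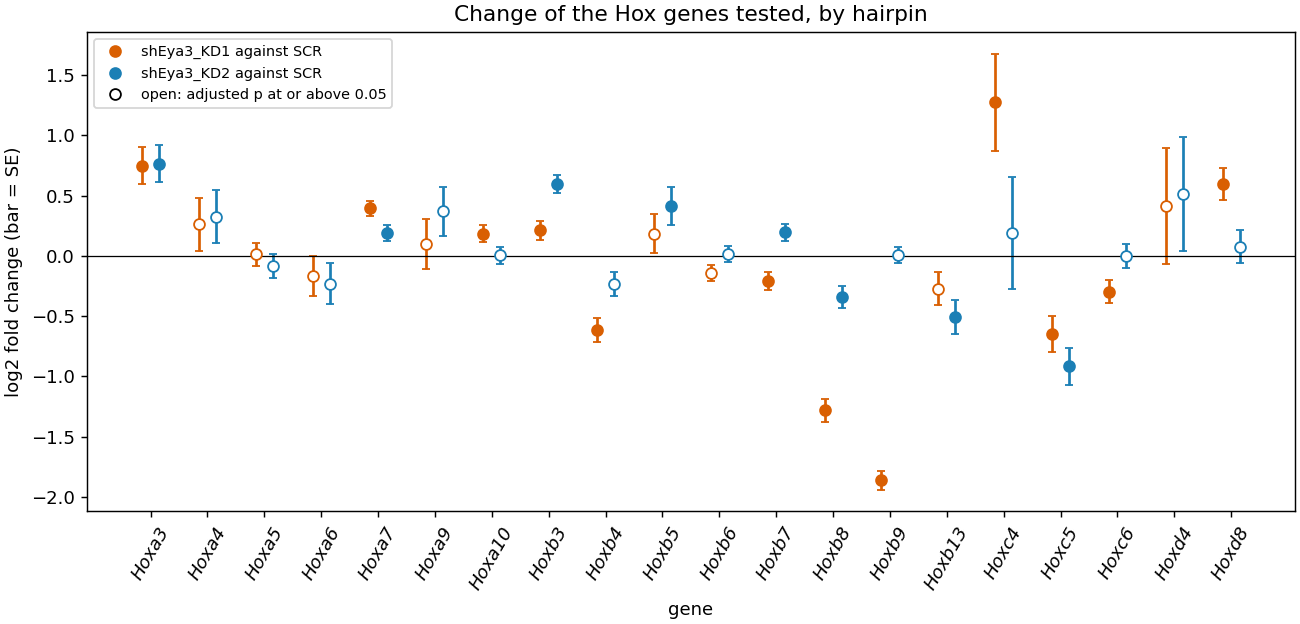
Log2 fold change against SCR (point) with its standard error (bar) of 20 of the 21 Hox genes tested, shEya3_KD1 and shEya3_KD2 side by side, with open points where the adjusted p was at or above 0.05. Hoxb9 with shEya3_KD1 is the lowest point at -1.86, next to a shEya3_KD2 point at 0.01.

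Among the 21 Hox genes tested, the largest change was the fall of Hoxb9 with shEya3_KD1. Hoxb9, a posterior gene that acts with Hoxa9 and Hoxd9 in mammary gland development, had 45.3, 47.7 and 48.7 CPM in the 3 SCR libraries, 12.3, 13.9 and 12.7 CPM with shEya3_KD1, and 47.8, 50.2 and 44.5 CPM with shEya3_KD2. The shEya3_KD1 libraries all lay far below every other library, and those of SCR and shEya3_KD2 overlapped. The log2 fold change was -1.86 ± 0.08 (SE) with shEya3_KD1 (edgeR adjusted p = 2.69e-11) and 0.01 ± 0.07 with shEya3_KD2 (adjusted p = 0.939), and the difference between the hairpins was 1.87 ± 0.08 (adjusted p = 4.06e-11). In bulk RNA, fewer cells with a transcript and less of it per cell cannot be told apart. Of its paralogs, Hoxa9 was low and Hoxc9 and Hoxd9 were off in all groups. Hoxb9 was thus the only gene of paralog number 9 that was on by the 1 CPM rule, while with 0.5 CPM Hoxa9 was on too.

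Hoxb8, the neighbour of Hoxb9 and a gene known from blood progenitors and microglia, fell with both hairpins. It had 20.8, 23.3 and 19.4 CPM in SCR, 8.77, 9.38 and 7.93 CPM with shEya3_KD1, and 15.9, 18.6 and 15.8 CPM with shEya3_KD2. No library of one group reached another group, with SCR highest and shEya3_KD1 lowest. The log2 fold changes were -1.28 ± 0.10 (edgeR adjusted p = 4.14e-08) and -0.34 ± 0.09 (adjusted p = 0.00804), and the hairpins differed by 0.94 ± 0.10 (adjusted p = 1.88e-06).

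Towards the anterior end the next genes changed far less. Hoxb7, studied for its overexpression in breast cancer, had 26.3, 25.1 and 25.1 CPM in SCR, 20.1, 23.1 and 23.1 CPM with shEya3_KD1, and 29.0, 29.7 and 29.0 CPM with shEya3_KD2. Its groups did not overlap, with SCR in the middle. It was the only Hox gene called in opposite directions with the hairpins, beside 5.28% of all genes, at -0.21 ± 0.07 (edgeR adjusted p = 0.0255) and 0.20 ± 0.07 (adjusted p = 0.0363). Both calls were narrow. The first was lost without SCR replicate 1 or shEya3_KD1 replicate 1 (adjusted p 0.0865 to 0.116), and the second without any single SCR or shEya3_KD2 library (0.0513 to 0.118). The difference between the hairpins, 0.40 ± 0.07 (adjusted p = 0.000299), was kept under every alternative tried.

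Hoxb6, active in the embryonic flank and limb field, passed in no comparison. It had 28.6, 29.8 and 29.8 CPM in SCR, 26.4, 26.02 and 27.6 CPM with shEya3_KD1, and 28.7, 30.4 and 30.2 CPM with shEya3_KD2. The shEya3_KD1 libraries lay below all others, but the difference from SCR of -0.14 ± 0.06 did not pass (edgeR adjusted p = 0.0813). Between the hairpins the value was 0.16 ± 0.06 (adjusted p = 0.0537), which passed without shEya3_KD1 replicate 3 (adjusted p = 0.0456). Hoxb5, which acts in lung and vessel development, had 3.19, 3.42 and 3.68 CPM in SCR, 4.27, 2.83 and 4.64 CPM with shEya3_KD1, and 4.35, 5.17 and 4.27 CPM with shEya3_KD2. It was higher with shEya3_KD2 at 0.41 ± 0.16 (adjusted p = 0.0467), a call lost without any single SCR library or shEya3_KD2 replicate 1 or 2 (0.0644 to 0.139) and also with DESeq2, other size factors or a stricter filter (up to 0.0739). With shEya3_KD1 the value was 0.18 ± 0.16 (adjusted p = 0.366), which passed without shEya3_KD1 replicate 2 (0.37, adjusted p = 0.0421), and the difference between the hairpins did not pass (0.23 ± 0.16, adjusted p = 0.257).

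Hoxb4, a regulator of blood stem cell self-renewal, had 13.6, 14.4 and 13.1 CPM in SCR, 9.14, 9.55 and 8.16 CPM with shEya3_KD1, and 11.2, 13.4 and 10.7 CPM with shEya3_KD2. With shEya3_KD1 all 3 libraries were below every other, and the log2 fold change was -0.61 ± 0.10 (edgeR adjusted p = 9.45e-05). With shEya3_KD2 1 library reached into the SCR range and the value of -0.23 ± 0.10 did not pass (adjusted p = 0.0628). It did pass with RLE factors, with the 1 CPM filter and without shEya3_KD2 replicate 2, the library nearest SCR (-0.33, adjusted p = 0.00842). Hoxb4 thus fell between a pair of neighbours, Hoxb5 and Hoxb3, that did not fall.

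Hoxb3, an anterior gene of the hindbrain and pharyngeal arches, rose with both hairpins. Its levels were 14.3, 13.9 and 13.6 CPM in SCR, 16.9, 15.5 and 16.0 CPM with shEya3_KD1, and 21.8, 22.2 and 19.5 CPM with shEya3_KD2, with no overlap between any groups. The log2 fold changes were 0.21 ± 0.08 (edgeR adjusted p = 0.0323) and 0.60 ± 0.08 (adjusted p = 1.78e-05), and shEya3_KD2 was above shEya3_KD1 by 0.39 ± 0.08 (adjusted p = 0.000649). The smaller rise was lost with DESeq2 and without any single SCR library, shEya3_KD1 replicate 1 or 3 or shEya3_KD2 replicate 1 (adjusted p 0.0525 to 0.129). Of its exonic bases 52.9% lie opposite the antisense gene Hoxb3os, which counted 0.0847 CPM in SCR and 0.104 and 0.0965 CPM with the hairpins, and without a stated strand setting their reads cannot be told apart.

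Hoxb13, a gene of the tail bud and prostate, lies apart from the others and was on at a low level. It had 2.95, 2.65 and 2.74 CPM in SCR, 2.22, 2.46 and 2.22 CPM with shEya3_KD1, and 2.20, 1.85 and 1.77 CPM with shEya3_KD2. All libraries of both hairpins were below SCR, and the fall passed with shEya3_KD2 (-0.51 ± 0.14, edgeR adjusted p = 0.00776) but not with shEya3_KD1 (-0.27 ± 0.14, adjusted p = 0.110). The difference between the hairpins did not pass (adjusted p = 0.193).

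**Figure D4:**
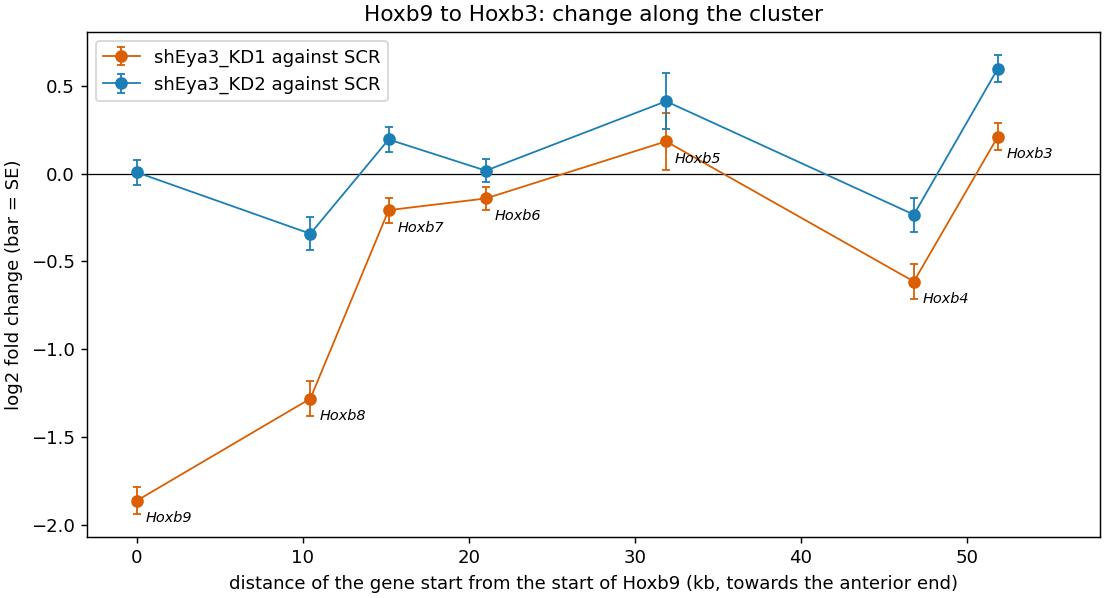
Log2 fold change against SCR (point, bar = standard error) of the 7 HoxB genes from Hoxb9 to Hoxb3 against the distance of the gene start from that of Hoxb9 in kb, for each hairpin. With shEya3_KD1 the values run from -1.86 at Hoxb9 and -1.28 at Hoxb8 to -0.21 at Hoxb7, and dip again at Hoxb4 (-0.61).

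Set along the chromosome, the change with shEya3_KD1 was lowest at the posterior end of the main HoxB run. It was -1.86 at Hoxb9, -1.28 at Hoxb8 10.4 kb away, -0.21 at Hoxb7, -0.14 at Hoxb6 and 0.18 at Hoxb5. It then dropped to -0.61 at Hoxb4, 46.8 kb from Hoxb9, and was 0.21 at Hoxb3, so the values did not follow distance throughout. Hoxb9 to Hoxb7 lie within 15.2 kb of each other at their starts.

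Hoxb8 and Hoxb4, which fell with shEya3_KD1 more than their anterior neighbours Hoxb7 and Hoxb3, had a promoter window in the RefSeq table, and Hoxb9 had none there. The windows cover 250 bases before to 50 bases after the gene start on GRCm38.p6, at chr11:96281655-96281954 (+) for Hoxb8 and chr11:96318017-96318316 (+) for Hoxb4. Capitals mark matches to TATAAA or CCAAT on either strand.
Hoxb8: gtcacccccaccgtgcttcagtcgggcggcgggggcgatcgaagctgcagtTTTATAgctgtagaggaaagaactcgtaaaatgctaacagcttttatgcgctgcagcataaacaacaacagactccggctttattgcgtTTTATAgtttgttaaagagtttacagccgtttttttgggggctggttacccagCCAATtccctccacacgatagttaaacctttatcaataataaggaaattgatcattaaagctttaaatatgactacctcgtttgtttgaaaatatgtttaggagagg
Hoxb4: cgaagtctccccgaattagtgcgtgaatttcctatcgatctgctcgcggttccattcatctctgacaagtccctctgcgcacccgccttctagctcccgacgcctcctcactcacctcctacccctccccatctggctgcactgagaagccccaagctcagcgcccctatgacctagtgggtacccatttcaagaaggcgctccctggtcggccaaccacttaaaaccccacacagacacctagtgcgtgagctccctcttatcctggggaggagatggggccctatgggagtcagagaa

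The Hoxb8 window held 2 matches to TATAAA and 1 to CCAAT, and the Hoxb4 window held neither. TATAAA was found in 4 of the 24 Hox windows and in 13.6% of all 32851 windows, and CCAAT in 15 of 24 and 37.4%. The motif TGATTNA, bound by Hox and Pbx proteins together, was in 4 of 24 and 10.3%, and TCAGGTT, a motif given for Sine oculis-type proteins, in 2 of 24 and 4.07%, and neither was in these windows. The share of G and C was 42.3% for Hoxb8 and 58% for Hoxb4. Counted over 1 window a gene, the 8 matched genes that were on held 6 to 29 CpG pairs (median 13.5) and the 9 that were off 4 to 45 (median 20), against a median of 7 over all windows.

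In HoxA, 3 of the 8 genes tested rose with shEya3_KD1 and 3 with shEya3_KD2, beside 24.1% and 23% of all genes. None passed as lower with either, beside 26.2% and 22.3%. Hoxa7, a target of Kmt2a fusion proteins in leukaemia, was the most abundant of them. It had 31.8, 32.3 and 30.9 CPM in SCR, 42.4, 43.1 and 39.6 CPM with shEya3_KD1, and 36.7, 37.0 and 34.7 CPM with shEya3_KD2, with no overlap between any groups. The log2 fold changes were 0.40 ± 0.06 (edgeR adjusted p = 0.000107) and 0.19 ± 0.06 (adjusted p = 0.0269), and the hairpins differed by -0.21 ± 0.06 (adjusted p = 0.0151). The rise with shEya3_KD2 was lost without any single SCR library or shEya3_KD2 replicate 1 or 2 (adjusted p 0.0531 to 0.113), and the difference between hairpins without shEya3_KD1 replicate 2 or shEya3_KD2 replicate 3 (0.0541 to 0.0775). Of the exonic bases of Hoxa7, 20.4% lie opposite Hoxaas3, a non-coding gene at 0.235 CPM in SCR and 0.552 CPM with shEya3_KD1.

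Hoxa3, needed for thymus and parathyroid formation, showed the largest rise with both hairpins among the Hox genes on. It had 3.05, 3.81 and 3.44 CPM in SCR, 6.22, 5.83 and 5.22 CPM with shEya3_KD1, and 5.56, 7.46 and 4.74 CPM with shEya3_KD2. All 6 hairpin libraries were above all 3 SCR libraries, and the hairpin groups overlapped. The log2 fold changes were 0.75 ± 0.15 (edgeR adjusted p = 0.00085) and 0.76 ± 0.15 (adjusted p = 0.000978). Opposite-strand genes cover 25.4% of its exonic bases, and 8.01% are shared with Gm28308 on the same strand.

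Hoxa10, which acts in the uterus and in blood, had 22.8, 23.3 and 23.1 CPM in SCR, 25.002, 26.4 and 27.4 CPM with shEya3_KD1, and 22.9, 22.4 and 24.1 CPM with shEya3_KD2. The shEya3_KD1 libraries were above all others. It was higher with shEya3_KD1 by 0.19 ± 0.07 (edgeR adjusted p = 0.0314) and lower in shEya3_KD2 than in shEya3_KD1 by -0.18 ± 0.07 (adjusted p = 0.0367). The first call was lost without any single SCR library, shEya3_KD1 replicate 2 or 3 or shEya3_KD2 replicate 1 (adjusted p 0.0593 to 0.116). The second was lost without the same libraries or shEya3_KD2 replicate 2 (0.0512 to 0.130).

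Hoxa5 and Hoxa6 passed in no comparison. Hoxa5, which acts in lung and mammary tissue, had 7.68, 8.45 and 7.33 CPM in SCR, 8.09, 7.16 and 8.502 CPM with shEya3_KD1, and 7.72, 7.46 and 6.94 CPM with shEya3_KD2, and all groups overlapped. Hoxa6, a gene of the thoracic region, had 1.88, 3.01 and 2.57 CPM in SCR, 2.37, 2.11 and 2.16 CPM with shEya3_KD1, and 2.16, 1.96 and 2.20 CPM with shEya3_KD2, and all groups overlapped. Their log2 fold changes against SCR lay between -0.23 and 0.01.

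HoxC had a pair of active genes, and both fell with shEya3_KD1. Hoxc6, expressed in the mammary gland, had 16.0, 17.05 and 14.7 CPM in SCR, 13.6, 13.8 and 11.4 CPM with shEya3_KD1, and 14.96, 17.95 and 15.1 CPM with shEya3_KD2. The shEya3_KD1 libraries were below all others, at -0.30 ± 0.10 (edgeR adjusted p = 0.0208), while SCR and shEya3_KD2 overlapped. That call was lost without SCR replicate 2 or shEya3_KD1 replicate 3 (adjusted p 0.0778 to 0.0879). Hoxc6 was higher in shEya3_KD2 than in shEya3_KD1 by 0.30 ± 0.10 (adjusted p = 0.0227), which was lost without shEya3_KD1 replicate 3 or shEya3_KD2 replicate 2 (0.0793 to 0.0980) and with only the 6 libraries compared in the fit (0.0534).

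Hoxc5, a gene of the neck and upper thorax, had 3.40, 3.74 and 2.93 CPM in SCR, 1.95, 2.13 and 2.39 CPM with shEya3_KD1, and 1.83, 2.07 and 1.51 CPM with shEya3_KD2. All 6 hairpin libraries were below all SCR libraries, and the hairpin groups overlapped. It was the Hox gene with the largest fall with shEya3_KD2, at -0.92 ± 0.15 (edgeR adjusted p = 0.000229), and fell by 0.65 ± 0.15 on the log2 scale with shEya3_KD1 (adjusted p = 0.00222). The hairpins did not differ by the test (adjusted p = 0.194). It shares 166 exonic bases with Hoxc10, which was off.

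Hoxd8, the only active HoxD gene, had 2.81, 2.52 and 2.14 CPM in SCR, 3.57, 3.67 and 4.15 CPM with shEya3_KD1, and 2.79, 2.66 and 2.45 CPM with shEya3_KD2. The shEya3_KD1 libraries were above all others, at 0.60 ± 0.13 (edgeR adjusted p = 0.00156), and SCR and shEya3_KD2 overlapped (0.08 ± 0.14, adjusted p = 0.681). The hairpins differed by -0.52 ± 0.14 (adjusted p = 0.00509). Hoxb8 and Hoxd8, whose homeoboxes are printed above, thus moved in opposite directions with shEya3_KD1.

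**Figure D5:**
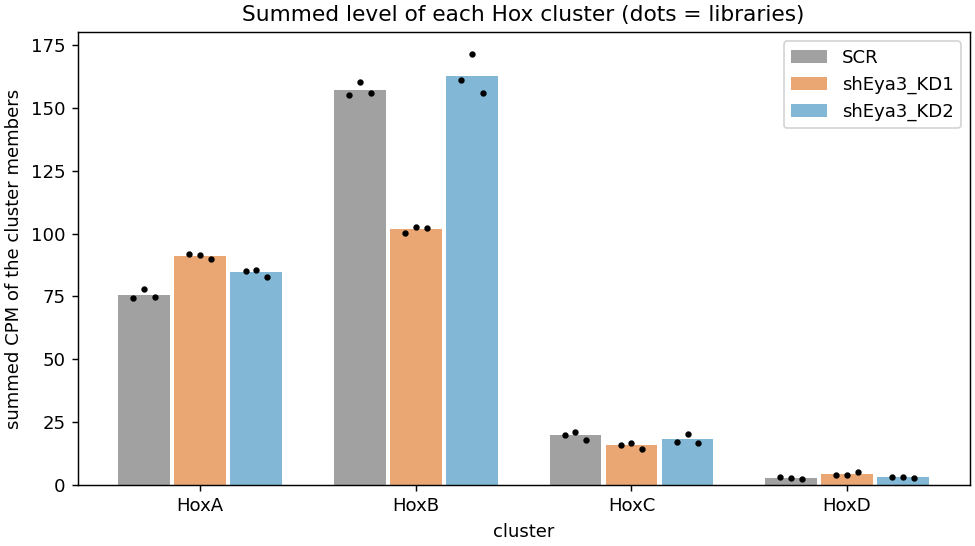
Summed CPM of the members of each Hox cluster, with bars at the mean of 3 libraries and dots for the libraries, by group. The shEya3_KD1 bar of HoxB stands at 102 CPM, below the SCR and shEya3_KD2 bars at 157 and 163 CPM, and the HoxA bar is highest with shEya3_KD1.

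Summed over its members, HoxB had 157 ± 2.81 CPM (SD, n = 3) in SCR, 102 ± 1.36 CPM with shEya3_KD1 and 163 ± 8.01 CPM with shEya3_KD2. HoxA had 75.7 ± 2.08, 91.1 ± 0.988 and 84.5 ± 1.49 CPM. HoxC had 19.6 ± 1.59, 15.7 ± 1.20 and 18.1 ± 1.94 CPM, and HoxD 2.74 ± 0.289, 4.30 ± 0.548 and 3.02 ± 0.232 CPM. HoxB libraries with shEya3_KD1 (100 to 103 CPM) lay below all others, and its share of the summed Hox CPM was 61.6% in SCR, 47.8% with shEya3_KD1 and 60.7% with shEya3_KD2. HoxA libraries of both hairpins and HoxD libraries with shEya3_KD1 lay above those of SCR, and HoxC libraries with shEya3_KD1 lay below those of SCR. These sums are not per length, so they weigh long and abundant genes most and were not tested.

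By direction, 3 Hox genes rose with both hairpins (Hoxa3, Hoxa7 and Hoxb3), beside 10.3% of all genes. Lower with both were 2 (Hoxb8 and Hoxc5), beside 13.3%. Hoxa10, Hoxc4 and Hoxd8 passed as higher and Hoxb4, Hoxb9 and Hoxc6 as lower with shEya3_KD1 and did not pass with shEya3_KD2, and the test between the hairpins passed for each of these 6. Hoxb5 and Hoxb13 passed with shEya3_KD2 and not with shEya3_KD1, but the test between the hairpins passed for neither. The shares of all genes that passed with a single hairpin were not computed, so these counts are no result about the Hox genes. No change passed in any of the 3 comparisons for 6 genes (Hoxa4, Hoxa5, Hoxa6, Hoxa9, Hoxb6 and Hoxd4), beside 28.3% of all genes. Of the 32 calls over the 3 comparisons, 20 were kept under all 15 alternatives. Among these were Hoxa3, Hoxa7, Hoxb4, Hoxb8, Hoxb9, Hoxc5 and Hoxd8 with shEya3_KD1, Hoxa3, Hoxb3, Hoxb8, Hoxb13 and Hoxc5 with shEya3_KD2, and Hoxb3, Hoxb4, Hoxb7, Hoxb8, Hoxb9 and Hoxd8 between the hairpins. The fit without a filter on low counts lost Hoxa10, Hoxb3 and Hoxb7 with shEya3_KD1, Hoxa7 and Hoxb7 with shEya3_KD2, and Hoxa7 and Hoxa10 between the hairpins (adjusted p 0.0538 to 0.170), and DESeq2 also lost Hoxb7 with shEya3_KD2.

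The 7 genes between on and off were Hoxa2, Hoxa4, Hoxa9, Hoxb2, Hoxc4, Hoxd3 and Hoxd4. Hoxa4 was at 0.632 to 1.01 CPM and Hoxa9 at 0.629 to 1.02 CPM over the 9 libraries. Hoxd4 was at 0.157 to 0.519 CPM, and none of these 3 passed. Hoxc4 was at 0.120 to 0.796 CPM and was higher with shEya3_KD1 by 1.27 ± 0.40 (edgeR adjusted p = 0.0157), with all 3 shEya3_KD1 libraries above SCR. That call was lost without SCR replicate 3 or shEya3_KD1 replicate 2 (adjusted p 0.0662 to 0.125). Its difference between the hairpins (-1.08 ± 0.41, adjusted p = 0.0385) was lost without shEya3_KD1 or shEya3_KD2 replicate 2 or 3 (0.0669 to 0.232) and with DESeq2 (0.0863).

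With the thresholds of 1 and 0.1 CPM, only Hoxa2, Hoxb2 and Hoxd3 had different states in different groups. They were off in SCR and low in a hairpin group, and they are named here after their values were seen. Hoxa2, a gene of the second pharyngeal arch, had 1, 1 and 3 counts in the SCR libraries, 11, 7 and 6 with shEya3_KD1 and 8, 5 and 13 with shEya3_KD2. Each hairpin library had more than each SCR library. SCR replicate 3 was at 0.0721 CPM, so Hoxa2 was not off in SCR with off under 0.05 CPM. By library totals it was 5.76-fold (95% exact counting interval 2.15 to 19.3) and 5.96-fold (2.25 to 19.9) above SCR. It had too few counts for the test, and in the fit without the filter its adjusted p was 0.00188 and 0.00112. Hoxd3 had 3 counts in SCR, 18 with shEya3_KD1 and 4 with shEya3_KD2, which is 7.20-fold (2.10 to 38.1) and 1.53-fold (0.258 to 10.4), but 62.3% of its exonic bases are shared with Hoxd4 and a further gene on the same strand, and 8.78% lie opposite Haglr and Hoxd3os1, the latter higher with shEya3_KD1 at 2.08 against 0.570 CPM. Hoxb2 had 1 count in SCR, 3 with shEya3_KD1 and 10 with shEya3_KD2, which is 3.60-fold (0.289 to 189) and 11.5-fold (1.63 to 497). Its counts in the shEya3_KD2 libraries were 3, 1 and 6, or 0.0585, 0.0369 and 0.142 CPM. Its low state with shEya3_KD2 thus rested on replicate 3 alone, and it was off there with off under 0.2 CPM.

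Of the non-coding genes of the clusters, 4 of 16 listed could be tested, 2 rose with shEya3_KD1 (24.1% of all genes) and none passed with shEya3_KD2 (45.3% of all genes called). Hoxd3os1, antisense in the HoxD cluster, went from 0.570 ± 0.236 CPM in SCR to 2.08 ± 0.136 CPM with shEya3_KD1 (log2 fold change 1.86 ± 0.23, edgeR adjusted p = 8.06e-06). Hoxaas3, antisense to Hoxa7 and Hoxa3, went from 0.235 ± 0.0370 to 0.552 ± 0.1002 CPM (1.19 ± 0.29, adjusted p = 0.00291). With shEya3_KD2 the values were 0.64 ± 0.26 for Hoxd3os1 (adjusted p = 0.0588) and 0.72 ± 0.31 for Hoxaas3 (adjusted p = 0.0703). The test between the hairpins passed for Hoxd3os1 (adjusted p = 0.000365) but not for Hoxaas3 (adjusted p = 0.164). Hotair, the HoxC antisense RNA known from breast cancer, had 8 counts in all 9 libraries, and Hottip had none.

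Of the 7 tested genes of the Hox partner families Pbx, Meis and Pknox, shEya3_KD1 had 2 higher and 1 lower (24.1% and 26.2% of all genes), and shEya3_KD2 had 5 higher and none lower (23% and 22.3%). Meis2 rose with both (0.67 ± 0.10 and 0.40 ± 0.10). Meis1 fell with shEya3_KD1 (-0.33 ± 0.10) and rose with shEya3_KD2 (0.75 ± 0.09), and Meis3 rose with shEya3_KD2 (0.54 ± 0.10). The median over the 7 was 0.15 and 0.38.

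Among 31 Polycomb subunits tested, 9 were called higher and 4 lower with shEya3_KD1 (24.1% and 26.2% of all genes), and 13 higher and 1 lower with shEya3_KD2 (23% and 22.3%), with medians of 0.07 and 0.18. Phc3 fell with shEya3_KD1 (-1.14 ± 0.12), Phc1 rose with shEya3_KD2 (0.79 ± 0.10), and Cbx7 and Pcgf5 rose with both (0.61 and 0.23, then 0.68 and 0.56). Of 14 Trithorax-group genes and related demethylases and methyltransferases, 4 were higher and 3 lower under shEya3_KD1, and 4 higher and none lower under shEya3_KD2, beside the same shares of all genes, with medians of 0.10 and 0.22. With shEya3_KD1 the methyltransferase genes Dot1l (-0.70 ± 0.09) and Kmt2b (-0.62 ± 0.13) fell and Ash1l rose (0.63 ± 0.16). Kmt2c was called higher with shEya3_KD2 (0.71 ± 0.24, edgeR adjusted p = 0.0374), where its level was 70.4 ± 26.7 CPM (SD). With shEya3_KD1 Kmt2c was at 0.63 ± 0.24 (adjusted p = 0.0521), and Ash1l with shEya3_KD2 at 0.34 ± 0.16 (adjusted p = 0.0987). The test between the hairpins passed for neither Kmt2c (adjusted p = 0.815) nor Ash1l (adjusted p = 0.160).

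Of 7 tested regulators upstream of Hox genes, 3 rose and 2 fell with shEya3_KD1 (24.1% and 26.2% of all genes). With shEya3_KD2, 4 rose and none fell (23% and 22.3%), and the medians were 0.18 and 0.23. Egr2, which activates Hoxa2 and Hoxb2 in the hindbrain, rose with both (2.17 ± 0.20 and 1.38 ± 0.21), as did the retinoic acid receptor gene Rara (0.31 ± 0.10 and 0.59 ± 0.10). Gdf11, a signal for posterior Hox genes, fell with shEya3_KD1 (-0.68 ± 0.08), and Cyp26b1, which breaks down retinoic acid, rose with it (0.59 ± 0.12). Whether these bear on the Hox levels was not tested.

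Of 15 tested genes listed as neighbours of the clusters, shEya3_KD1 had 4 higher and 4 lower (50.3% of all genes called) and shEya3_KD2 had 4 higher and 5 lower (45.3%), with medians of -0.05 and 0.03. Calcoco2, 82.4 kb from HoxB, was at 0.845 CPM in SCR, 0.361 CPM with shEya3_KD1 and 0.0332 CPM with shEya3_KD2 and was called lower with both, and Calcoco1, 198.9 kb from HoxC, fell with shEya3_KD1 (-0.80 ± 0.12). Hnrnpa1, 203.6 kb from HoxC, rose with both (0.67 and 0.20). Tax1bp3 was also listed and fell with both (-0.70 and -0.43), but it lies 23011 kb from HoxB and is no neighbour. Skap1, 96.3 kb from HoxB, did not pass with either hairpin.

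Of 16 tested homeobox genes outside the clusters, 6 were higher and 5 lower with shEya3_KD1 (24.1% and 26.2% of all genes), and 5 higher and 2 lower with shEya3_KD2 (23% and 22.3%), with medians of 0.14 and 0.13. Irx1 had 2 counts in SCR, 15 with shEya3_KD1 and 536 with shEya3_KD2, which is 8.99-fold (95% exact counting interval 2.09 to 81.1) and 307-fold (84.6 to 2542). Gbx1 fell with shEya3_KD1 (-2.88 ± 0.29) and Dlx3 rose with it (2.72 ± 0.19), and Prrx1 fell with both (-1.55 ± 0.08 and -0.61 ± 0.07).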

How the data were processed

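The data are from NuGEN Universal Plus mRNA-Seq libraries of cultured 66cl4 cells, per the labels. The submitters' processing notes name STAR, FastQC, MultiQC and the build mm10, with no version. How reads were counted, on which annotation and with what strand setting, is not given in the sources used here. Raw counts per gene symbol were used as deposited, and each of the 9 columns matched 1 sample title.

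The test was edgeR 4.0.16 in R 4.3.3 (filterByExpr, TMM factors, 1 robust quasi-likelihood fit over 9 libraries with group as the only term, Benjamini-Hochberg adjustment over 15914 genes), checked on simulated data, where the share of false calls came out above the nominal one for each hairpin against SCR. CPM values are TMM scaled. Coordinates and exon lengths came from GENCODE M21 and promoters from the RefSeq table of GRCm38.p6, in which 22 of 39 symbols matched. No library repeated another: chi-square per degree of freedom between replicates was 9.24 to 45.2.

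Every Hox gene was accounted for by state. Genes that were on were given by library, apart from items not reported here, and of each list up to 4 called genes with the largest change were named. The members and lists were chosen with earlier results of these data known. Alternatives were RLE size factors, DESeq2 1.42.0, no filter, 1 CPM in 3 libraries, a replicate block, only the libraries compared, each library left out, and other thresholds and library totals for the states.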

Additional observations from a re-analysis of the deposited data

Results flagged for a closer look

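Hoxb7 was the only Hox gene called in opposite directions with the hairpins, with every shEya3_KD1 library below every SCR library and every shEya3_KD2 library above. The log2 fold change was -0.21 with shEya3_KD1 and 0.20 with shEya3_KD2, and both calls were lost when single libraries were left out (adjusted p up to 0.116 and 0.118). The difference of 0.40 ± 0.07 between the hairpins passed (edgeR adjusted p = 0.000299), as it did for 11 of the 21 Hox genes tested, among which Hoxb9 (1.87), Hoxc4 (-1.08), Hoxb8 (0.94) and Hoxd8 (-0.52) differed more. Groups of 3 libraries were too small to look for single outlying libraries.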

How the results depend on the processing

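No Hox gene switched between on and off under any threshold or scaling tried. With on set at 2 CPM the genes on differed between the groups, 16 in SCR, 16 with shEya3_KD1 and 14 with shEya3_KD2. With on set at 0.5 CPM, 19 were on in each group. The genes off numbered 18 in SCR and 16 with either hairpin. Over plain library totals 17 were off in SCR, and with off under 0.05 CPM 15 were off in each group. With shEya3_KD2, 17 were off with off under 0.2 CPM, and 16 to 17 at 0.1 CPM with single libraries left out. With single libraries left out, the Hox genes called lower in shEya3_KD2 than in shEya3_KD1 numbered 1 to 4 (4 with all libraries, 1 without shEya3_KD1 replicate 2, 2 without shEya3_KD1 replicate 3 or shEya3_KD2 replicate 2 or 3). The same-numbered libraries of different groups correlated at -0.279 to 0.452 in their deviations from the group means, over 0.1 in 4 of 9 pairs. Other pairs correlated at -0.529 to 0.428, over 0.1 in 8 of 18, and own number was the best match in 5 of 18 cases. With 3 libraries a group these values cannot decide whether equal numbers mark shared cultures, which the labels do not say. With the replicate block the Hox genes called were 6 higher and 6 lower with shEya3_KD1, 5 and 4 with shEya3_KD2 (Hoxb5 lost, Hoxb4 gained), and 7 and 4 between the hairpins, and over all genes 8093, 7329 and 8017 instead of 8011, 7210 and 7889. No sign changed among called values. With shEya3_KD2 against SCR, uncalled values changed sign for Hoxa10 (-0.0082 with RLE factors, -0.0048 with DESeq2, -0.016 with the 1 CPM filter), Hoxb9 (-0.0045, -0.0023 and -0.013 likewise), Hoxb6 (-0.0027 with the 1 CPM filter) and Hoxc6 (0.014 without the filter, 0.0044 with the replicate block). Hoxa3 between the hairpins was -0.0081 with only those 6 libraries. Without single libraries, log2 values crossed 0 for Hoxa5 (-0.047 to 0.075), Hoxa9 (-0.0025 to 0.17) and Hoxd4 (-0.18 to 0.70) with shEya3_KD1. They did so for Hoxa10 (-0.025 to 0.026), Hoxb6 (-0.0024 to 0.042), Hoxb9 (-0.031 to 0.054), Hoxc4 (-0.29 to 0.50), Hoxc6 (-0.083 to 0.048) and Hoxd8 (-0.017 to 0.17) with shEya3_KD2. Between the hairpins it was Hoxa3 (-0.16 to 0.15), Hoxa4 (-0.13 to 0.17) and Hoxd4 (-0.24 to 0.69). The cause was not tested.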
